A study of Mus musculus with 12 samples.

Results

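The genes of the respiratory chain and ATP synthase were examined in Schwann cells that were sorted from mouse sciatic nerve 5 days after birth (P5). Members were the protein-coding genes of the count table whose symbols name a subunit of complexes I to V (Nduf, Sdh, Uqcr, Cox4 to Cox8 or Atp5 followed by the subunit) or a mitochondrially encoded protein, which gave 96 of the 25700 listed genes. Of these, 83 lie in the nucleus and 13 on the mitochondrial genome. Members were assigned to complexes by symbol alone, here and below. On this basis complex I holds 43 members (36 nuclear and 7 mitochondrial), complex II holds 4, complex III holds 9, complex IV holds 21 and complex V holds 19.

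The animals carried P0Cre in the heterozygous state, a Rosa26 allele with a loxP-flanked stop before the yellow fluorescent protein (ReYFP Tg/+) and a βAct-DsRed transgene (Tg/+), on a C57BL/6J background. In these mice eYFP marks cells in which P0Cre was active, that is the Schwann lineage and its descendants. From the cell suspensions, the mSC gate (high side scatter) took cells enriched for myelination, the nmSC gate (low side scatter) took cells enriched for not-myelinating cells, and the allSC gate took both clouds and therefore holds cells of both. Each gate has 4 libraries with subject numbers 1 to 4, which recur in the 3 gates and were taken as the mice, although the labels do not spell this out. Males and females were both used and are not told apart by the labels. All 3 gates carried the same alleles and went through the same enzymatic dissociation and sort, and RNA was amplified by Smart-Seq2, a poly-A-primed protocol over full-length transcripts without molecular identifiers.

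Libraries held between 8180927 and 16918122 counted reads. The summed level of 7 myelin genes ranged from 155264 to 212630.0 CPM (reads scaled to library size with edgeR's TMM factors) in mSC and from 18389 to 21005 CPM in nmSC. That of the proliferation genes Mki67 and Top2a ranged from 35.5 to 57.9 CPM in mSC and from 474 to 609 CPM in nmSC. Fibroblast-like markers, 5 genes summed, ranged from 888 to 2250.2 CPM in mSC and from 9404 to 14271 CPM in nmSC, where 2 of the 5 were higher, the collagen gene Col3a1 most. Perineurial markers, 4 genes, ranged from 137 to 217 CPM in mSC and from 204 to 339 CPM in nmSC, with 1 higher and 2 lower in mSC. Pericyte and smooth muscle markers, 4 genes, ranged from 66.2 to 178 CPM in mSC and from 50.6 to 88.2 CPM in nmSC, with Pdgfrb higher at 1.09 on the log2 scale (edgeR adjusted p = 0.00143) and Myh11 lower. Endothelial markers, 5 genes, ranged from 20.4 to 29.6 CPM and from 8.18 to 13.4 CPM, with Kdr higher at 1.80 (edgeR adjusted p = 9.66e-07) and 2 lower, and immune markers, 5 genes, from 14.7 to 22.6 CPM and from 20.8 to 28.8 CPM, with Cd68 lower. Skeletal muscle markers stayed at or under 8.60 CPM and adipocyte markers at or under 3.56 CPM in every library, and erythroid markers at or under 30.1 CPM. The part of any other cell type in the results was not tested, and in bulk samples less RNA per cell cannot be told apart from fewer cells of a type.

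Oxidative phosphorylation passes electrons from NADH through complex I, or from succinate through complex II, to complex III, cytochrome c and complex IV, where oxygen is reduced. Complexes I, III and IV pump protons across the inner mitochondrial membrane, and complex V, the ATP synthase, uses the gradient to make ATP. Complex II is encoded by nuclear genes alone, whereas the other complexes join nuclear subunits with a few core subunits read from mitochondrial DNA. Schwann cells that myelinate build large amounts of membrane, and loss of respiratory function in these cells is known to harm the axons they wrap.

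The 13 mitochondrial genes were first compared with one another and with the copies of mitochondrial DNA that are inserted in the nuclear genome. Their reads were very unequal. mt-Co1, the catalytic core of complex IV, collected 911823 reads over the 12 libraries, mt-Cytb of complex III collected 546644 and mt-Nd1 of complex I collected 484160. In contrast, mt-Co2 and mt-Atp8 were at 0 reads in all 12 libraries, and mt-Atp6 had 2 reads in all. With 0 reads, counting error alone allows up to 3 counted reads per library, that is between 0.177 and 0.367 CPM by library size without TMM factors. That range holds for counted reads only. It sets no limit on the transcripts, since how reads with several matches were counted is not stated. mt-Co3 had 469, mt-Nd4l 501 and mt-Nd3 2726 reads.

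These 6 low genes lie side by side. In the GENCODE annotation of GRCm38, 7 pseudogenes on chromosome 1, none of them a row of the counts and all between 24611535 and 24616197 on the minus strand, match bases 6390 to 11042 of the mitochondrial genome in the same order, with an identity of at least 99.7% over their aligned bases. The gap between the copies of mt-Co2 and mt-Atp6, where mt-Atp8 lies, is 233 bases on both chromosomes. All 6 genes that lie whole within the matched stretch had between 0 and 7833 reads per kb of gene, whereas the 5 genes with no base in it had between 22832 and 505914. mt-Co1 (31.3% of its bases within) and mt-Nd4 (63.6%) had 590177 and 76164 reads per kb. Of all windows of 100 bases, somewhat shorter than a read, 99.5% in mt-Co2, 99.9% in mt-Co3 and 97.6% in mt-Nd3 were found unchanged in an annotated nuclear transcript. This share was 30.8% in mt-Co1 and 0% in mt-Nd1, mt-Nd5, mt-Nd6 and mt-Cytb. It was also 0% in mt-Atp8, for which no transcript is annotated within the gap between the copies of its neighbours. How reads with several matches were counted is not stated in the sources used here, and its part in these counts was not tested.

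A window of 100 bases shows the contrast between a gene with no reads and a gene with many. Bases 101 to 200 of mt-Co2 (chrM:7113-7212, plus strand, GRCm38) are identical in the chromosome 1 copy Gm28661 (chr1:24615366-24615465, minus strand) and in a further copy on chromosome 2, Gm13341 (chr2:22587763-22587862, minus strand). The same bases of mt-Cytb (chrM:14245-14344, plus strand) differ at 7 positions from the closest copy, Gm11410 (chr4:80004089-80004188, plus strand). Sequences are the coding strand, from the GENCODE transcripts, and capitals mark bases of a copy that differ from the mitochondrial gene.
mt-Co2: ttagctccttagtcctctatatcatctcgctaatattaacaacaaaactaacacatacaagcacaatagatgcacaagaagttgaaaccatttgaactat
Gm28661: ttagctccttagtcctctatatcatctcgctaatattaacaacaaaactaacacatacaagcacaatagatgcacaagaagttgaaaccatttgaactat
Gm13341: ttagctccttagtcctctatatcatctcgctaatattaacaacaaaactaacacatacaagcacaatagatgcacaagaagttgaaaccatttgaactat
mt-Cytb: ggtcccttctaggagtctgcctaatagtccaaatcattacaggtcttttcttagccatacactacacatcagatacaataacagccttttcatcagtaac
Gm11410: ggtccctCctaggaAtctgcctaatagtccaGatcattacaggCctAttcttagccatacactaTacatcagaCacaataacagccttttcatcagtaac

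**Figure D1:**
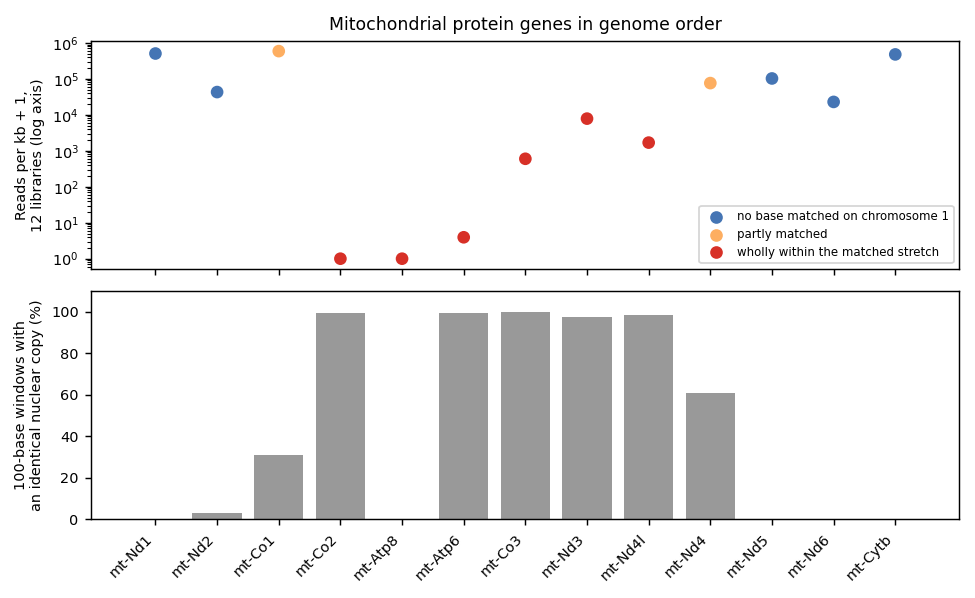
Reads per kb of gene plus 1, summed over the 12 libraries (top, log axis), and the share of windows of 100 bases with an identical annotated nuclear copy (bottom, percent), for the 13 mitochondrial protein genes in their order on the genome. The 6 genes within the stretch matched on chromosome 1 (red) lie below all others, and mt-Co2 and mt-Atp8 at 0 reads are drawn at 1.

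As a share of all counted reads, the mitochondrial members took 1.42, 1.60, 1.60 and 2.04% in mSC libraries 1 to 4, 1.61, 1.35, 1.16 and 1.66% in nmSC and 1.37, 1.39, 1.58 and 1.62% in allSC. The gate means were 1.66% ± 0.265 (SD, n = 4), 1.45% ± 0.234 (SD, n = 4) and 1.49% ± 0.126 (SD, n = 4). The nuclear members took 0.653, 0.824, 0.835 and 1.12% in mSC, 1.12, 0.912, 0.891 and 0.796% in nmSC and 0.806, 0.848, 0.880 and 0.835% in allSC, with means of 0.858% ± 0.194 (SD, n = 4), 0.930% ± 0.137 (SD, n = 4) and 0.842% ± 0.0307 (SD, n = 4). For each genome the 3 gates overlapped, and the nuclear members had their widest range within the mSC gate. Over the 12 libraries, the 6 mitochondrial genes within the stretch matched on chromosome 1 held only 0.161% of the mitochondrial reads. The mitochondrial shares therefore rest almost wholly on the other mitochondrial genes. Wilson 95% intervals of these shares reached at most 0.00863 percentage points to each side, and they cover counting error only.

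Reads on the mitochondrial members exceeded those on the nuclear members by a factor of 1.82 to 2.17 in mSC, 1.30 to 2.09 in nmSC and 1.64 to 1.93 in allSC. These factors hold for the counted reads, in which 6 of the 13 mitochondrial genes are nearly absent. Among the nuclear members, complex V took the most reads, with 0.374% ± 0.0524 (SD, n = 4) in mSC and 0.410% ± 0.0274 (SD, n = 4) in nmSC. Complex I followed with 0.232% ± 0.0708 (SD, n = 4) and 0.247% ± 0.0547 (SD, n = 4). The 4 genes of complex II had the smallest spread, with 0.0640% ± 0.00253 (SD, n = 4) in mSC and 0.0708% ± 0.00367 (SD, n = 4) in nmSC. As shares of the reads, every mSC library lay below every nmSC library for complex II, but on the TMM scale the order turned. There the 4 genes summed to 709, 750.3, 801 and 888 CPM in mSC libraries 1 to 4 and to 526, 548, 646 and 631 CPM in nmSC, so that every mSC library lay above every nmSC library.

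**Figure D2:**
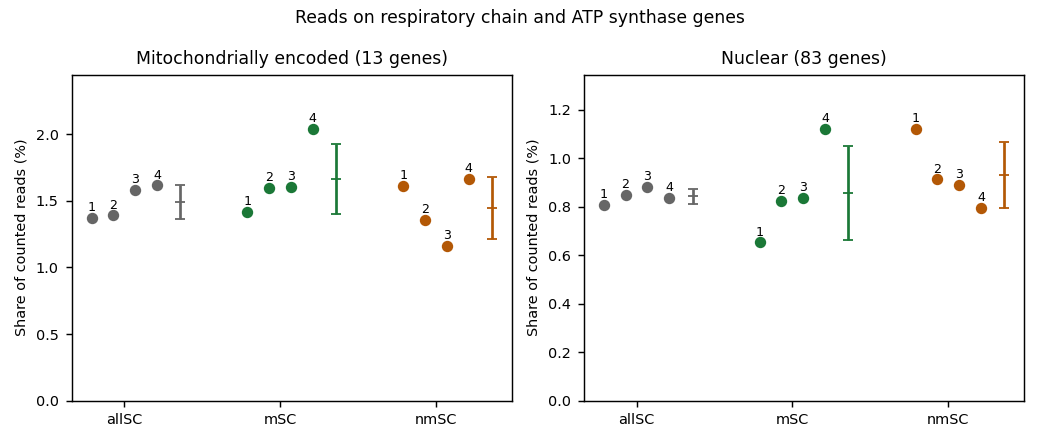
Share of counted reads (percent) on the 13 mitochondrial genes (left) and on the 83 nuclear genes (right), with 1 point per library marked with its subject number and the gate's mean ± SD beside the points. The gates overlap in both panels, and the lowest and highest nuclear shares, 0.653% and 1.12%, are mSC 1 and mSC 4, with nmSC 1 level with the latter. Of the 13 mitochondrial genes, 6 hold only 0.161% of the mitochondrial reads.

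Per length of transcript (RPKM, TMM-scaled CPM per kb of mean transcript length, mean of 12 libraries), the members spanned several orders of magnitude. mt-Co1 was highest at 3998 RPKM, followed by mt-Nd1 at 3505 and mt-Cytb at 3325. Atp5b, the catalytic beta subunit of ATP synthase, led the nuclear members at 2112 RPKM, ahead of Sdha, the flavoprotein of complex II, at 509, Atp5a1, the alpha subunit, at 460.0, Cox4i1 at 368 and Uqcrc1, a core protein of complex III, at 340.0. At the other end of ATP synthase, Atp5l reached 6.58 RPKM. Subunits of 1 complex were thus counted at levels that differed widely within complex V, although alternative transcripts enter the mean length, and 23 of the 83 nuclear members have a near-identical copy elsewhere (at least 95% over 100 bases) that can take their reads. Atp5l itself has 9 such copies and a mean transcript length of 1939 bases, whereas Atp5b has 0 copies and a mean of 875 bases.

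Where a subunit has tissue isoforms, the reads lay on the broadly expressed gene. Cox4i1 was at 426 RPKM in mSC and 346 RPKM in nmSC, whereas Cox4i2, the isoform of lung and of oxygen-sensing cells, had at most 4 reads in a library. Cox6a1 was at 192 and 135 RPKM, and Cox6a2, the heart and muscle isoform, had 0 reads in all libraries. Cox6b1 was at 311 and 230.0 RPKM against 3.64 and 3.02 RPKM for Cox6b2, the testis isoform. Cox8a was at 344 and 184 RPKM, while Cox8b, of heart and muscle, and Cox8c, of testis, did not pass the filter on low counts, like Cox7b2. Of the 3 genes for subunit c of the ATP synthase rotor, which encode the same mature protein, Atp5g3 was at 94.8 and 64.9, Atp5g2 at 59.8 and 41.8 and Atp5g1 at 25.6 and 18.8 RPKM. The place of Atp5g1 rests on its mean transcript length of 2665.5 bases, against 640 for Atp5g2 and 772 for Atp5g3. In reads, Atp5g1 lay above Atp5g2 in every library, in mSC at 426, 730, 798 and 948 against 301, 373, 458 and 517.

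The central comparison was between the gates enriched for myelinating and for not-myelinating cells. Of the 96 members, 88 passed the filter on low counts (78 nuclear and 10 mitochondrial), and 26 were higher in mSC than in nmSC and 0 lower (edgeR quasi-likelihood test, adjusted p under 0.05). Over all 18597 genes tested, 20.4% were higher and 20.2% lower. The 8 mitochondrial genes called were mt-Nd1, mt-Nd3, mt-Nd4, mt-Nd5, mt-Nd6, mt-Cytb, mt-Co1 and mt-Co3, out of 10 tested. The 18 nuclear genes called, out of 78, made up a share close to that background, so their count alone is no result about them. At an unadjusted p under 0.05 stood 35 members, and none of them was lower in mSC. The median log2 fold change was 0.81 over the 10 mitochondrial genes, 0.45 over the 78 nuclear genes and -0.16 over all genes tested.

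The direction depended on the scaling. Scaled by library size alone, that is as shares of the reads, 3 members were higher in mSC and 3 lower. The medians were 0.23 for the mitochondrial, -0.17 for the nuclear and -0.73 for all tested genes. The share of all tested genes called under this scaling is not given here, so these counts alone are no result about the members. The medians of both groups of members lay above that of all tested genes under either scaling, in the same order. A change of scaling shifts all genes of a library alike, so this order could hardly differ and is no separate result. The myelin genes named above took between 155264 and 212630.0 CPM in mSC, and TMM factors were 0.744 to 0.871 there against 1.16 to 1.28 in nmSC.

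Among the mitochondrial genes, mt-Co1 was counted at 7578, 7887, 7881 and 8959 CPM in mSC libraries 1 to 4, at 4351, 4065, 4492 and 5617 CPM in nmSC and at 5495, 5517, 6058 and 6229 CPM in allSC. All mSC libraries lay above all nmSC libraries, and the log2 fold change was 0.80 ± 0.12 (SE, adjusted p = 3.58e-05). mt-Cytb was counted at 3586, 4654, 4471 and 7697 CPM in mSC libraries 1 to 4, at 3017, 2575, 2449 and 3252 CPM in nmSC and at 3242, 3146, 3620.2 and 3934 CPM in allSC. mSC and nmSC did not overlap here either, whereas allSC overlapped both, and mt-Cytb differed between mSC and nmSC by 0.85 ± 0.18 (SE, adjusted p = 0.00104). mt-Nd4, a proton-pumping core subunit of complex I, rose by 0.96 ± 0.18 (SE, adjusted p = 2.94e-04) without overlap of mSC and nmSC. mt-Nd1 lay at 2884, 3940.0, 4014 and 6137 CPM in mSC libraries 1 to 4, at 3126, 2455, 1751 and 3324 CPM in nmSC and at 2825, 2804, 3405 and 3591 CPM in allSC. Here the lowest mSC library fell within the nmSC range, and the difference was 0.67 ± 0.21 (SE, adjusted p = 0.0149). Without nmSC 3 mt-Nd1 reached the threshold without passing it (adjusted p = 0.05). mt-Nd5 at 0.74 (adjusted p = 0.00516), mt-Nd3 at 1.08 (adjusted p = 0.00428) and mt-Nd6 at 0.82 (adjusted p = 0.0219) were called although mSC and nmSC overlapped. mt-Nd6 is the only mitochondrial member annotated on the minus strand. How strand was treated in counting is not stated, so its reads cannot be assigned to a strand. The call of mt-Nd6 was lost without mSC 4 (adjusted p = 0.0698), without nmSC 2 (adjusted p = 0.061) and without nmSC 3 (adjusted p = 0.0657). mt-Co3 was called, without overlap of mSC and nmSC, at 1.28 (adjusted p = 0.00152) on 13 to 70 reads per library. mt-Nd2 did not pass at 0.53 (adjusted p = 0.11), nor did mt-Nd4l at -0.43 (adjusted p = 0.517). mt-Nd3, mt-Nd4l and mt-Co3 lie whole within the stretch matched on chromosome 1, where few reads were counted, and they enter the mitochondrial medians.

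By complex, 8 of 36 tested nuclear subunits of complex I, 1 of 4 of complex II, 2 of 8 of complex III, 2 of 13 of complex IV and 5 of 17 of complex V were higher in mSC. Against the 20.4% of all tested genes, these counts of a few genes each are no result about a complex. Their median log2 fold changes, 0.45, 0.36, 0.47, 0.45 and 0.47, lay close together. No difference between complexes was tested.

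In complex I, Ndufa13, an accessory subunit also known as GRIM-19, had the largest change at 1.50 ± 0.32 (SE, adjusted p = 9.46e-04). Ndufa13 stood at 46.1, 118, 116 and 219.8 CPM in mSC libraries 1 to 4, at 67.0, 42.6, 36.9 and 30.1 CPM in nmSC and at 53.7, 58.8, 72.2 and 67.4 CPM in allSC. Its mSC libraries spread widely, and mSC 1 fell within the nmSC range. Ndufa3, an accessory subunit, had the lowest value at -0.028 ± 0.41 (SE, adjusted p = 0.96), and it ranged from 9.51 to 32.3 CPM in mSC and from 8.82 to 43.9 CPM in nmSC.

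In complex II, Sdhd, which anchors the complex in the membrane, was called. Sdhd was counted at 134, 149, 152 and 237 CPM in mSC libraries 1 to 4, at 82.8, 90.3, 105 and 101 CPM in nmSC and at 115, 117, 117 and 119.6 CPM in allSC. The 3 gates did not overlap, and it differed by 0.82 ± 0.15 (SE, adjusted p = 2.89e-04). Sdha was counted at 467, 420.1, 474 and 363 CPM in mSC libraries 1 to 4, at 260.1, 312, 390.4 and 402 CPM in nmSC and at 457, 382, 393 and 386 CPM in allSC. Sdha did not pass at 0.34 ± 0.14 (SE, adjusted p = 0.0645), nor did the iron-sulfur protein Sdhb at 0.38 (adjusted p = 0.119) or the second anchor Sdhc at 0.085 (adjusted p = 0.835).

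In complex III, Uqcrfs1, the Rieske iron-sulfur protein that hands electrons to cytochrome c1, led. Uqcrfs1 was counted at 163, 205, 209 and 321 CPM in mSC libraries 1 to 4, at 120.2, 120.2, 128 and 123 CPM in nmSC and at 140.5, 160.3, 159 and 154 CPM in allSC. It differed by 0.87 ± 0.16 (SE, adjusted p = 2.05e-04) without overlap of the 3 gates. Uqcrc2, a core protein named here after its values were seen, was called as well at 0.81 ± 0.14 (SE, adjusted p = 1.10e-04), with 203, 212, 202 and 311 CPM in mSC against 118, 129, 147 and 134 CPM in nmSC. Its partner Uqcrc1 stood at 0.29 ± 0.13 (SE, adjusted p = 0.0852) and did not pass. Under library size alone Uqcrc1 was lower in mSC, at -0.28 (edgeR adjusted p = 0.03).

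In complex IV, Cox7a1, the heart and muscle isoform of subunit VIIa, showed the largest fold at 1.72 ± 0.56 (SE, adjusted p = 0.0198), on few reads. It had 14, 17, 13 and 15 reads in mSC libraries 1 to 4, 8, 6, 1 and 4 reads in nmSC and 9, 12, 3 and 8 reads in allSC. The call of Cox7a1 was lost without nmSC 3 (adjusted p = 0.0554) and without nmSC 4 (adjusted p = 0.0579). Cox7a2l differed by 0.61 ± 0.18 (SE, adjusted p = 0.0115), at 125, 147, 148 and 274 CPM in mSC against 114, 109, 119 and 111 CPM in nmSC. Cox4i1 was counted at 111, 229, 229.6 and 457 CPM in mSC libraries 1 to 4, at 281, 198, 197 and 160.2 CPM in nmSC and at 166, 196, 221 and 218 CPM in allSC. The 3 gates overlapped, and Cox4i1 did not pass at 0.30 ± 0.28 (SE, adjusted p = 0.397). The other isoform genes Cox6a1, Cox6b1, Cox6b2, Cox7a2, Cox7b and Cox8a did not pass either, with log2 fold changes from 0.21 to 0.90.

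In complex V, Atp5b was counted at 1997, 2067, 2092 and 2531 CPM in mSC libraries 1 to 4, at 1343, 1517, 1809 and 1597 CPM in nmSC and at 1869.8, 1811, 1751 and 1781 CPM in allSC. All mSC libraries lay above those of the other gates, whereas nmSC and allSC overlapped, and Atp5b differed between mSC and nmSC by 0.47 ± 0.12 (SE, adjusted p = 0.00418). Atp5s, a factor that couples the enzyme to its membrane part and is not a catalytic subunit, had the largest change at 0.79 ± 0.18 (SE, adjusted p = 0.00163), at 11.9, 20.2, 14.2 and 15.0 CPM in mSC against 10.0004, 8.35, 7.33 and 9.63 CPM in nmSC. Atp5j2, a small membrane subunit, had the lowest at -0.018 ± 0.32 (SE, adjusted p = 0.967). The genes of subunit c gave 0.44 for Atp5g1, 0.51 for Atp5g2 and 0.54 for Atp5g3, and did not pass.

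Positions in GRCm38 of the nuclear members described most closely are chr8:69894180-69902558 for Ndufa13, chr9:50596357-50603812 for Sdhd and chr13:30540308-30545362 for Uqcrfs1, all on the minus strand, and chr10:128083273-128090391 for Atp5b on the plus strand. Each position spans the whole gene, and reads were counted per gene. Ndufa13 shares 375 bases with Tssk6 and Uqcrc2 504 bases with Pdzd9, each on the opposite strand, and reads there cannot be told apart without strand. In all, 38 members overlap another annotated gene. Sdhd, Uqcrfs1 and Atp5b overlap none and have no near-identical copy.

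The starts of the nuclear members were searched for short motifs of factors known to act on respiratory genes, in the 250 bases before and 50 bases after each start (RefSeq, GRCm38.p6, either strand, 68 of 83 members matched). The NRF1 motif (GCGCA, any base, then GCGC) lay in 17 of these 68 genes and in 5.19% of all 27025 genes. The ETS motif of GABPA, CCGGAAG, lay in 23.5% and 9.93%, the YY1 motif AAGATGGC in 14.7% and 3.19%, the CRE motif TGACGTCA in 5.88% and 2.03%, and the ERR motif TCAAGGTCA in 2.94% and 0.466%. These are matches of letters and no measure of binding. A background of genes with like GC content or expression was not examined. Shown are the 150 bases before the start of 2 genes that were higher in mSC, Sdhd (chr9:50603850-50603999, minus strand) with an NRF1 and an ETS match, and Uqcrfs1 (chr13:30545317-30545466, minus strand) with a CRE match, in capitals.
Sdhd: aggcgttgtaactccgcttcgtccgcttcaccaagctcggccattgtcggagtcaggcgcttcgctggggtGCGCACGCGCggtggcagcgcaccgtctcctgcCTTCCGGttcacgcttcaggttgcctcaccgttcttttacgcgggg
Uqcrfs1: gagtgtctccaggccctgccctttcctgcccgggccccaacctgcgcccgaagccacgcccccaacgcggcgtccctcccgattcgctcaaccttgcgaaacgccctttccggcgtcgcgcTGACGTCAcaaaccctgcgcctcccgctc

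The nuclear members varied widely between libraries of 1 gate. Cox6b1 was counted at 38.3, 113, 116 and 241 CPM in mSC libraries 1 to 4, at 169, 90.2, 63.3 and 53.1 CPM in nmSC and at 62.8, 86.6, 107 and 93.1 CPM in allSC. Cox6b1, a small subunit of complex IV, thus varied more within mSC than its mean differed between gates, at 0.43 ± 0.39 (SE, adjusted p = 0.381). Over the 60 tested nuclear members with a mean transcript length under 1 kb, the highest library exceeded the lowest by a median factor of 3.79 in mSC, 2.26 in nmSC and 1.41 in allSC. mSC 4 was the highest of its gate for 58 of the 60 and mSC 1 the lowest for 58, and nmSC 1 was the highest of its gate for 53. The 2003 other genes under 1 kb had median factors of 1.94 in mSC and 1.44 in nmSC, and the 18 longer nuclear members 2.20 and 1.44.

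Other short transcripts moved with the same libraries, though less far. For genes of 500 to 750 bases that are no members, the median deviation from the gene's mean over 12 libraries was -0.35 on the log2 scale in mSC 1, 0.75 in mSC 4 and 0.17 in nmSC 1, and for the 28 nuclear members of that length it was -0.86, 1.15 and 0.61. For other genes of 3000 to 5000 bases it was 0.031, -0.25 and 0.13. The 77 genes of the cytosolic ribosome, which are also short, summed to 8797, 13618, 13907 and 24132 CPM in mSC libraries 1 to 4 and to 19700.4, 13357, 13669 and 11296 CPM in nmSC. An example of a longer and steadier member is Ndufs1, the largest core subunit of complex I, at 211, 206, 216 and 191 CPM in mSC libraries 1 to 4. Longer members were not steady as a group. In mSC 1, mSC 4 and nmSC 1 the 14 nuclear members of 1000 to 1500 bases had median deviations of -0.27, 0.82 and -0.075. For the 2 of 1500 to 2000 bases they were -0.17, 0.56 and -0.015, and for the 2 of 2000 to 3000 bases -0.90, 1.19 and 0.51.

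**Figure D3:**
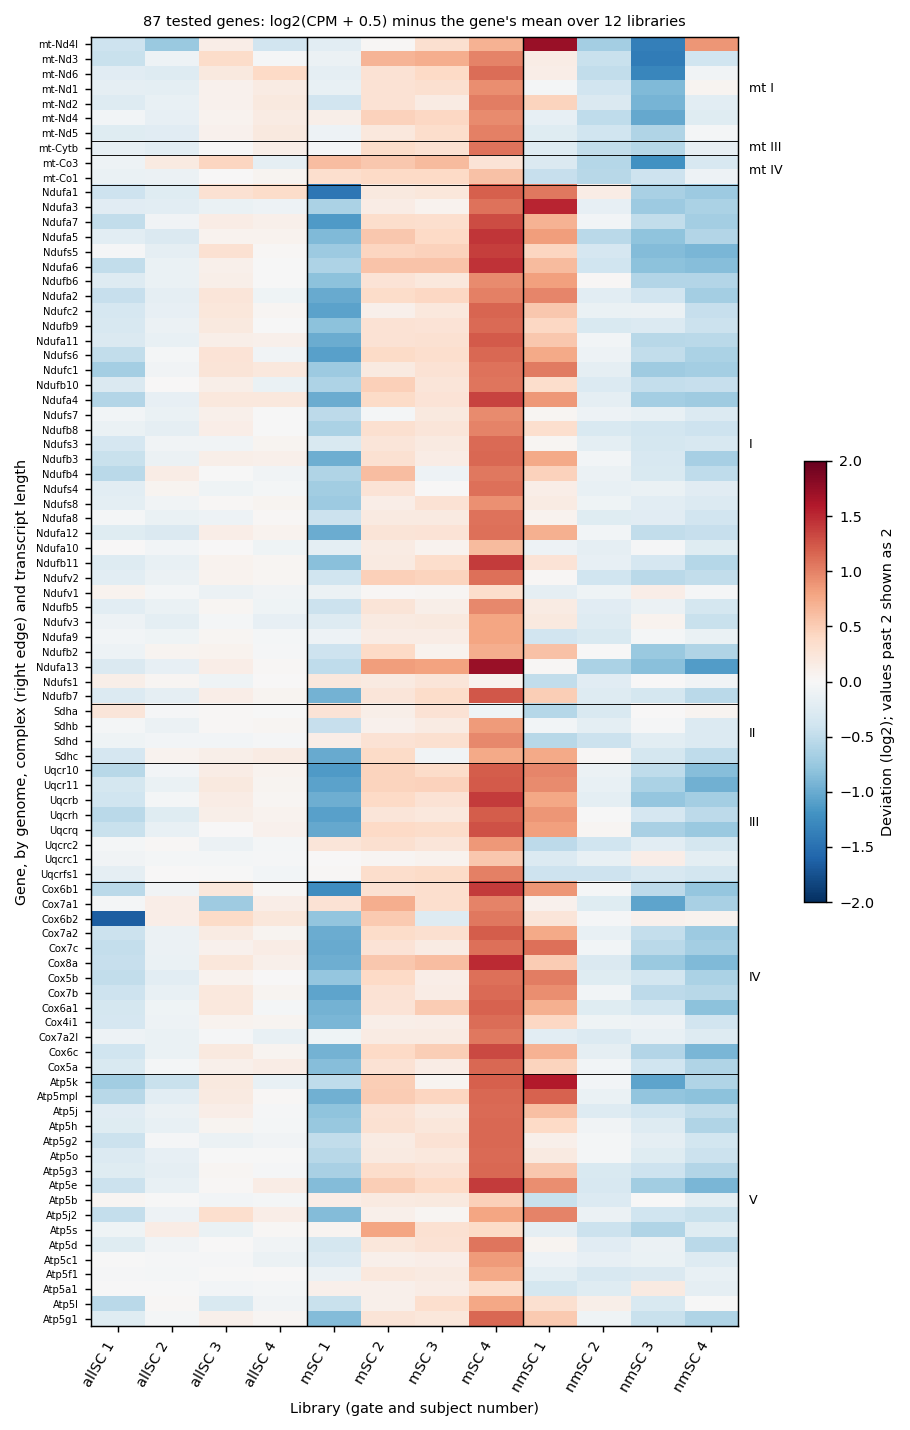
Deviation of log2(CPM + 0.5) from the gene's mean over the 12 libraries for 87 of the 88 tested members (rows, by genome, complex and transcript length) in each library (columns). mSC 4 is high for most members, mSC 1 is low for most short nuclear members although it belongs to the same gate, and nmSC 1 is high for the short ones.

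**Figure D4:**
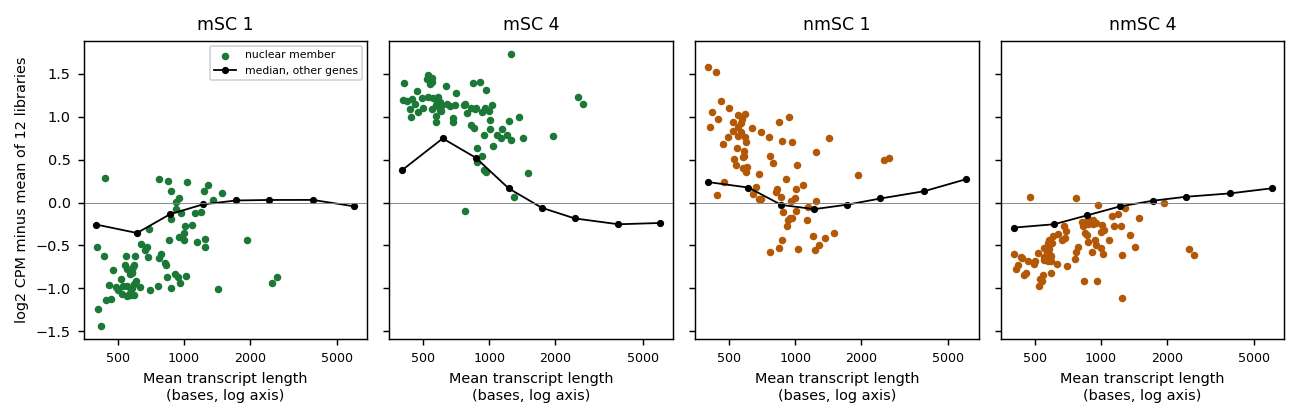
Deviation of log2(CPM + 0.5) from the mean of the 12 libraries against mean transcript length (bases, log axis) in mSC 1, mSC 4, nmSC 1 and nmSC 4. Points are nuclear members and the line joins the medians of all other genes by length band. Most short members lie low in mSC 1 and nmSC 4 and high in mSC 4 and nmSC 1, farther from 0 than the line.

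Taken by subject number, the median difference between mSC and nmSC over the nuclear members was -1.17, 0.44, 0.63 and 1.60 on the log2 scale for numbers 1 to 4. For the mitochondrial members it was 0.012, 0.82, 1.31 and 1.12. The nuclear median was therefore negative for number 1 and above 0 for the other 3. These differences rest on reading the numbers as mice. Over all tested genes, deviations of same-numbered libraries correlated at only 0.0329 on average (from -0.165 to 0.189 over 12 pairs). Over the nuclear members alone, the deviations in mSC and nmSC correlated at -0.828, 0.115, -0.217 and -0.786 for numbers 1 to 4. Without mSC 1 the number of members called higher rose from 26 to 64, without nmSC 1 to 44, and without mSC 1, mSC 4 and nmSC 1 together to 77. Without mSC 4 the nuclear median fell to 0.11. In none of these fits was a member lower in mSC. The share of all tested genes called in them is not given here, so these counts are no result about the members alone. With the subject number as a block in the fit, 21 members were higher and 0 lower (background 19.5% and 19.1%).

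The relation of each library to transcript length and GC content was then removed, as an alternative added after seeing the data for the mean length. With the mean transcript length, 10 of 78 nuclear members were higher in mSC with a median of 0.11, and 9 of 10 mitochondrial members with a median of 0.85, and 0 lower in both groups, against a background of 20.7% of all tested genes higher and 20.8% lower. With the union of exons as the length, 19 nuclear members were higher with a median of 0.34 (background 21% higher and 21.4% lower). These measures differ for members with short alternative transcripts, such as Atp5b with a mean of 875 bases and 4237 bases of exons in all. After the correction by mean length, mt-Co1 stood at 0.86 (adjusted p = 3.88e-06), mt-Cytb at 0.79 (adjusted p = 6.87e-05) and mt-Nd2 at 0.53 (adjusted p = 0.0132). Sdhd at 0.66 (adjusted p = 4.09e-04), Uqcrfs1 at 0.75 (adjusted p = 3.10e-04) and Ndufa13 at 1.19 (adjusted p = 0.00227) kept their direction and passed. Atp5b at 0.21 (adjusted p = 0.114) and Cox7a2l at 0.31 (adjusted p = 0.0587) no longer passed.

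**Figure D5:**
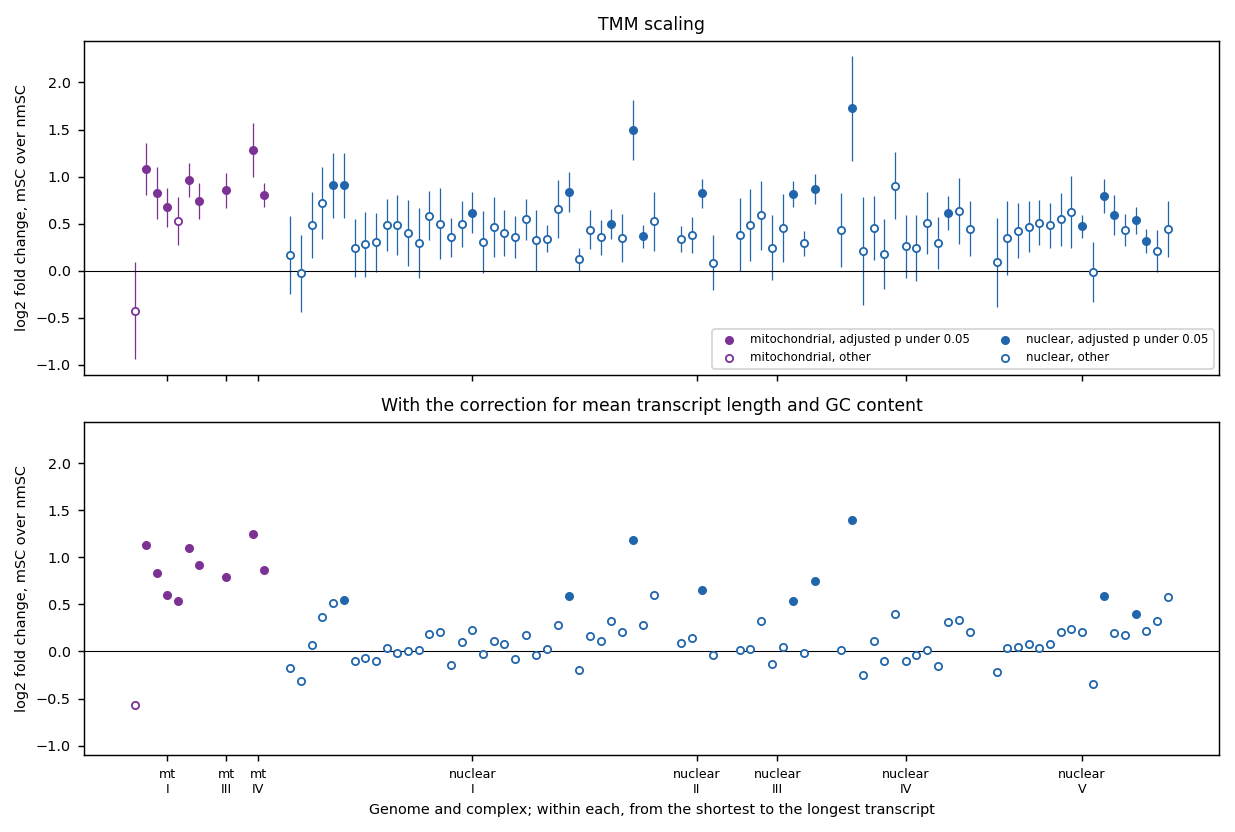
log2 fold change of mSC over nmSC for 87 of the 88 tested members, by genome and complex, with TMM scaling (top, bars are ± SE) and after the correction for mean transcript length and GC content (bottom, without bars). Filled points have an adjusted p under 0.05. After the correction the nuclear points centre on 0.11 and the mitochondrial points on 0.85.

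Both other comparisons use the mixed allSC gate and so share its 4 libraries. Against allSC, 7 members were higher in mSC and 0 lower (background 8.76% and 8.80%). Among them were mt-Co1 at 0.47 ± 0.12 (SE, adjusted p = 0.0123), mt-Cytb at 0.55 ± 0.18 (SE, adjusted p = 0.0445), Ndufa13, Sdhd, Uqcrc2 and Uqcrfs1. Of the 7, only mt-Co1 was called in every fit that left out 1 library. Between nmSC and allSC the edgeR test called 0 members in either direction (background 2.83% higher and 7.54% lower), with 5 members at an unadjusted p under 0.05. DESeq2 called 0 higher and 2 lower. The allSC mean lay between those of the other gates for 9 of 10 mitochondrial and 45 of 78 nuclear members, and for 69.5% of all tested genes.

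The rest of the pathway was described with lists of genes that are no members. Their counts in mSC against nmSC are to be read against the 20.4% of all tested genes that were higher and the 20.2% that were lower (20.7% and 20.8% after the correction for mean transcript length and GC content), and a share near these is no result about a list. Of cytochrome c and 3 subunits whose symbols the rule omits, 3 were tested and 2 were higher in mSC, led by Cycs at 0.63 ± 0.18 (SE, adjusted p = 0.0093), the mobile carrier between complexes III and IV. Of the assembly factors, 2 of 15 for complex I and 8 of 32 for complexes II to V were higher and 0 lower, with medians of 0.31 and 0.37, and the counts were 2 and 8 after the correction. The tricarboxylic acid cycle and pyruvate dehydrogenase had 12 of 21 higher and 2 lower, and 9 higher and 2 lower after the correction. Its largest values were Pdk1, a kinase that holds pyruvate dehydrogenase back, at 1.36 ± 0.24 (SE, adjusted p = 1.67e-04), and Suclg2, the GTP-forming subunit of succinyl-CoA synthetase, which fell by 2.72 ± 0.19 (SE, adjusted p = 8.44e-10). Of 17 genes of transport and import, 5 were higher and 0 lower, led by Vdac2 at 1.44 ± 0.13 (SE, adjusted p = 4.36e-08), a channel of the outer membrane. After the correction 7 were higher and 2 lower, and the median turned from 0.16 to -0.053.

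Genes that keep and read mitochondrial DNA were split, with 3 of 21 higher and 2 lower in mSC and a median of -0.048 (3 and 4 after the correction). They ran from Rrm2b at 1.14 ± 0.18 (SE, adjusted p = 3.91e-05), a ribonucleotide reductase subunit that serves mitochondrial DNA, to Fastkd5 at -0.76 ± 0.22 (SE, adjusted p = 0.00998). Of 11 nuclear regulators, 1 was higher and 3 lower (1 and 4 after the correction). Ppargc1a, the coactivator PGC-1alpha, was higher at 0.52 ± 0.16 (SE, adjusted p = 0.0171), and Gabpb1, the partner of GABPA, was lowest at -0.72 ± 0.13 (SE, adjusted p = 2.55e-04). The mitochondrial ribosome had 10 of 78 higher and 1 lower, with a median of 0.20, and the cytosolic ribosome 0 and 0 of 77 (edgeR), with a median of -0.029. After the correction the mitochondrial ribosome had 7 higher and 6 lower, with a median of 0.0082, and the cytosolic ribosome 0 higher and 17 lower, with a median of -0.38. Of 16 genes known to respond to tissue dissociation, 1 was higher and 5 lower in mSC, led by Ier2 at -2.52 ± 0.17 (SE, adjusted p = 7.46e-10).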

How the data were processed

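RNA of sorted cells was amplified by Smart-Seq2 and sequenced. Per the labels and the study's methods, the authors trimmed reads, aligned them with STAR 2.6.1c and counted them per gene with featureCounts, and deposited raw counts that were not normalized. The build is GRCm38.p5 in the submitters' processing notes and a human build in the methods text, while the gene identifiers are mouse. Strand, multimapping and overlap options are not given in the sources used here. Poly-A priming, PCR and full-length coverage can make counts depend on transcript length.

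Symbols, positions and lengths came from GENCODE M21 (25587 of 25700 identifiers matched), copies from blastn 2.17.0. Counts were tested with edgeR 4.0.16 in R 4.3.3 (TMM, filterByExpr by gate, quasi-likelihood test, all 12 libraries, no covariate, Benjamini-Hochberg adjustment over 18597 genes, threshold 0.05). All adjusted p-values are from this test unless DESeq2 1.42.0 is named. RPKM is TMM-scaled CPM per kb of mean transcript length. Length and GC corrections used smooth offsets (mgcv 1.9.3). Scripts were tested on simulated data. Libraries held 8180927 to 16918122 reads, and Wilson intervals cover counting error only.

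The labels give each gate the same subject numbers, and the numbers were taken as the mice, which the labels do not spell out. Over all tested genes, the mean correlation of deviations between same-numbered libraries was 0.0329 over 12 pairs and -0.0110 between other numbers. Genes named were all mitochondrial genes, in each complex the nuclear members with the highest and lowest fold change and the highest RPKM, isoform genes, the Sdh genes, untested members, and the extremes of each list. Uqcrc2, Ndufs1 and the genes named beside counts were chosen after their values were seen. Members and lists were chosen with earlier results of these data known. Single-gene values of 1 member in the named set are not reported here. Alternatives covered scaling, tool, filter, samples, block, length and left-out libraries.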

Additional observations from a re-analysis of the deposited data

Results flagged for a closer look

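In each gate the 4 libraries of the named members were searched for 1 library far from the other 3 (Dixon's test at the 95% level). Of 108 groups of 4 examined, 5 held such a library, and chance gives about 1 in 20. The causes were not tested. Ndufa3, a subunit of complex I, stood at 43.9 CPM in nmSC 1 against 8.82 to 13.4 CPM in nmSC 2 to 4. Atp5j2, a membrane subunit of complex V, stood at 51.9 CPM in nmSC 1 against 18.9 to 23.7 CPM. Uqcrc1 of complex III stood at 451 CPM in mSC 4 against 311 to 324 CPM, and Cox7a2l at 274 CPM in mSC 4 against 125 to 148 CPM. Sdha of complex II stood at 457 CPM in allSC 1 against 382 to 393 CPM in allSC 2 to 4.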

How the results depend on the processing

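Depth did not limit the abundant members, whereas mt-Co3, mt-Nd4l and Cox7a1 rest on few reads, and intervals cover counting error only. Scaling and 3 libraries moved the results most, and the causes were not tested. For most alternatives below, the share of all tested genes called is not given, so their counts cannot be read as particular to the members. The count of 26 members higher in mSC than in nmSC became 3 by library size alone (with 3 lower and a mitochondrial median of 0.23), 10 by library size without the 50 most counted genes, 22 with a filter of 1 CPM and 20 with only the 2 gates in the fit. It was 32 with DESeq2 size factors, 30 with DESeq2's test, 29 without a filter, 28 with exon length and GC correction (26 with the block) and 19 with mean transcript length (18 with the block). Leaving out 1 library gave 18 (without nmSC 2) to 64 (without mSC 1), and leaving out mSC 1, mSC 4 and nmSC 1, chosen after seeing the data, gave 77. The subject number as a replicate block gave 21, without Ndufa6, Ndufs3, Ndufs5, Atp5a1 and Atp5d, and with no member called that was not called before. The blocked nuclear median was 0.38 and the mitochondrial 0.81. Leave-one-out medians were 0.11 to 0.71 for nuclear and 0.57 to 0.95 for mitochondrial members. In every leave-one-out fit 16 of the 26 stayed called, not Ndufa6, Ndufa9, Ndufs1, Ndufs3, Ndufs5, Atp5a1, Atp5d, Cox7a1, mt-Nd1 and mt-Nd6, and mt-Co1 was the only member called in all alternatives run.

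For mSC against allSC, the 7 higher members became 0 by library size alone, 0 without the 50 most counted genes, 13 with DESeq2's test, 3 with only the 2 gates, 13 with exon length correction (11 with the block), 32 without the 3 libraries, and 2 to 52 leaving out 1 library. For nmSC against allSC, the 0 lower members became 2 with DESeq2's test, 2 with only the 2 gates, 4 with exon length correction (6 with the block), 4 with mean transcript length (4 with the block), 17 without the 3 libraries, and 0 to 1 leaving out 1 library.

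Of 747 values of named genes under the alternatives, 614 kept their direction and call, 29 lost the call, 43 gained it and 61 changed sign, 3 of these past the threshold (edgeR). These were Uqcrc1 by library size (-0.28, adjusted p = 0.03), Ndufa3 without the 3 libraries (0.64, adjusted p = 0.00833) and Ndufa3 without nmSC 1 (0.81, adjusted p = 0.0403). By library size alone the log2 fold changes that changed sign were -0.087 for mt-Nd2, -0.21 for Sdha, -0.28 for Uqcrc1, -0.32 for Cox4i1, -0.099 for Atp5b, -0.12 for Cox6a1, -0.21 for Cox6b1, -0.38 for Cox6b2, -0.17 for Cox7a2, -0.39 for Cox7b, -0.18 for Atp5g1, -0.096 for Atp5g2, -0.073 for Atp5g3, -0.22 for Sdhb and -0.53 for Sdhc. Without the 50 most counted genes they were -0.016 for Sdha, -0.080 for Uqcrc1, -0.11 for Cox4i1, -0.17 for Cox6b2, -0.18 for Cox7b, -0.0092 for Sdhb and -0.32 for Sdhc. They were 0.045 for Ndufa3 and 0.053 for Atp5j2 with DESeq2 size factors, 0.049 for Ndufa3 and 0.058 for Atp5j2 with DESeq2's test, 0.015 for Ndufa3 and 0.023 for Atp5j2 without a filter and 0.13 for Ndufa3 with the replicate block. They were -0.094 for Cox6b2 with exon length correction and -0.24 for Cox6b2 with the block added. With mean transcript length they were -0.020 for Uqcrc1, -0.16 for Cox4i1, -0.25 for Cox6b2, -0.038 for Cox7b and -0.042 for Sdhc, with the block added -0.021 for Uqcrc1, -0.19 for Cox4i1, -0.038 for Cox6b1, -0.37 for Cox6b2, -0.057 for Cox7b and -0.082 for Sdhc, and without the 3 libraries 0.28 for mt-Nd4l, 0.64 for Ndufa3 and 0.41 for Atp5j2. Leaving out 1 library gave -0.41 to 0.81 for Ndufa3, -0.32 to 0.44 for Atp5j2, -0.13 to 0.56 for Cox4i1, -0.072 to 0.88 for Cox6b1, -0.25 to 0.55 for Cox6b2, -0.17 to 0.69 for Cox7b, -0.18 to 0.42 for Sdhc and -0.78 to 0.33 for mt-Nd4l.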
